A study of Arabidopsis thaliana with 12 samples.

Results

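The CFH1 decoy line of Arabidopsis thaliana was set against a PIF3 over-expression line, with 3 libraries of each and every gene with enough counts in the table. Of 27588 genes in the deposited table, 20904 passed a filter on low counts and were tested. Whole seedlings of both lines, ecotype Columbia 0 in the labels, had been kept under 12 h light and 12 h dark for 7 days and then moved to continuous red light. They were harvested on day 12, 1 h after subjective dawn. The same table holds 3 libraries of Col-0 and 3 of the cfh1 mutant (cfh1-1), whose levels are given for description only and entered no test. What the decoy and PIF3 transgenes are driven by, and whether each line is a single transformant, is not given in the sources used here, nor is whether the replicates were separate cultures, and p-values then cover only the spread between these libraries, which may be technical.

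PIF3 is a basic helix-loop-helix transcription factor that accumulates in darkness and restrains light-driven seedling development. Red light converts phytochromes to their active form, which binds PIF3 and leads to its phosphorylation and breakdown. F-box proteins are the subunits of SCF ubiquitin ligases that choose the substrate, and a decoy, as the approach is generally used, is a form without the F-box that binds substrates without handing them to the ligase. The comparison thus sets a line with an altered F-box protein beside one with a raised amount of a light-signalling repressor, both under red light. No source used here gives the locus that CFH1 stands for.

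Library totals ran from 21914394 to 34345088 counts in the decoy line and from 31333924 to 32309836 in the PIF3 line. The 10 most counted genes took 7.65% to 8.99% of the decoy libraries and 4.08% to 5.04% of the PIF3 libraries. On the first principal component, with 77.3% of the variance, the lines separated, and decoy replicate 1, the shallowest library, stood apart from the other decoy libraries on the second, with 9.29%. The biological coefficient of variation was 0.248 in the decoy line and 0.162 in the PIF3 line. Leaf mesophyll markers summed to 47218 to 70538 CPM (counts scaled to library size) in the decoy libraries and 17562 to 25909 CPM in the PIF3 libraries, and all 6 were called higher in the decoy line. RBCS1A, LHCB1.3 and RCA among them are also members of the photosynthesis lists below, so the markers are not a separate readout. Root markers summed to 5130 to 7091 CPM and 3649 to 4643 CPM, most of it PYK10, at 6582, 4953 and 6307 CPM in the decoy libraries and 3486, 4247 and 3295 CPM in the PIF3 libraries. Of the 14 root markers 3 were higher and 2 lower, and their median log2 difference was -0.75, opposite in sign to the sums. The PYK10 call (adjusted p = 0.0446) was lost in 7 of the 13 alternatives. The part that cell proportions play in any difference below was not tested, and in whole seedlings fewer cells of a type and less RNA per cell cannot be told apart.

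PIF3 itself checks the labels. PIF3 had 42.2, 31.5 and 28.3 CPM in the 3 decoy libraries, against 339, 341 and 353 CPM in the 3 PIF3 libraries. The lines did not overlap, and the decoy libraries lay near the Col-0 mean of 28.4 CPM (log2 difference -3.34, SE 0.18, adjusted p = 1.9e-05). The titles of the PIF3 libraries call them a mutant while their genotype field says over-expression, and the counts go with the genotype field. An F-box gene named only by its locus, AT2G32560, chosen after its values were seen, moved the other way. AT2G32560 stood at 373, 287 and 345 CPM in the decoy libraries and at 25.4, 39.8 and 32.8 CPM in the PIF3 libraries. Its means were 40.6 CPM in Col-0 and 16.2 CPM in the cfh1 mutant (log2 difference 3.36, SE 0.21, adjusted p = 3.46e-05).

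Between the lines, 3156 of 20904 genes (15.1%) were higher in the decoy line and 3424 (16.4%) were lower at an adjusted p under 0.05 in edgeR's quasi-likelihood test, and 14324 did not pass. A log2 difference of at least 1 was reached by 1192 of the higher and 2018 of the lower genes. The 3 libraries of each line did not overlap for 6530 of the 6580 called genes. Call and separation come from the same counts, so this adds no support to the calls, and the share over all tested genes is not given. Counts of list members below are to be read beside the 15.1% higher and 16.4% lower of all genes tested. Scaling by library totals alone in place of trimmed means moved the median log2 difference of all genes from -0.01 to -0.36 and the calls to 1520 higher and 6794 lower, so that 18.3% of calls were higher in place of 48.0%. Without PIF3 over-expression replicate 3 the counts were 1854 and 2189.

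**Figure D1:**
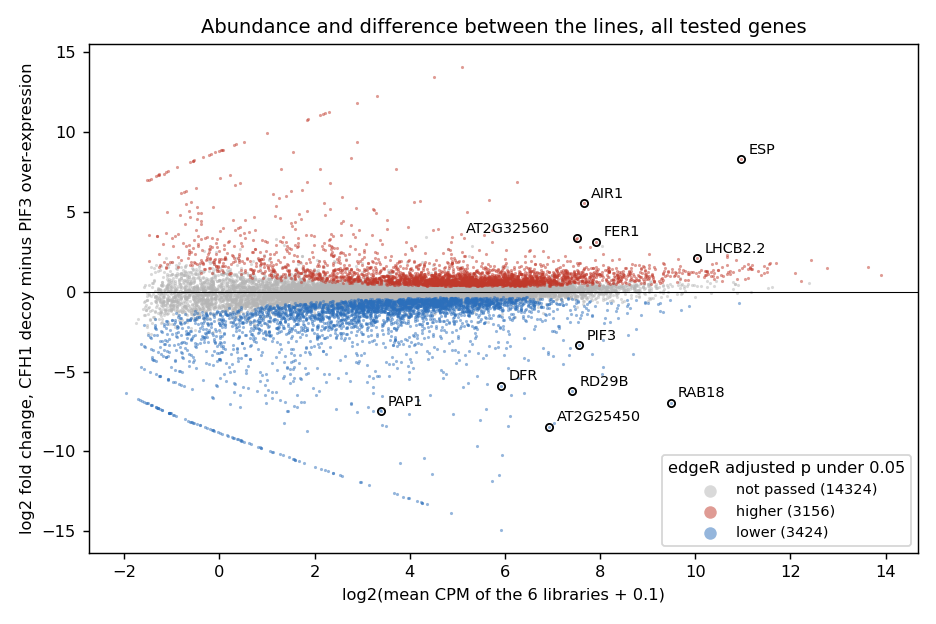
Mean abundance of each tested gene over the 6 libraries (x axis, log2 of CPM plus 0.1) against its log2 fold change, decoy minus PIF3 over-expression (y axis). Red marks the 3156 genes called higher in the decoy line, blue the 3424 called lower and grey the 14324 that did not pass. The straight edges at the top and bottom are genes with no counts in one line, whose fitted values are no measure of size.

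The promoters of the genes with the largest change in each of 4 lists are shown because PIF and clock factors bind short DNA elements that can be looked for there. They are the 250 bases before the annotated gene start in RefSeq's TAIR10.1 assembly, printed 5′ to 3′ on the gene's strand, with capitals for the G-box (CACGTG), the PBE-box (CACATG), the evening element (AAAATATCT) and the I-box (GATAAG), searched on both strands.
LHCB2.2, chr2:1800473-1800722, minus strand: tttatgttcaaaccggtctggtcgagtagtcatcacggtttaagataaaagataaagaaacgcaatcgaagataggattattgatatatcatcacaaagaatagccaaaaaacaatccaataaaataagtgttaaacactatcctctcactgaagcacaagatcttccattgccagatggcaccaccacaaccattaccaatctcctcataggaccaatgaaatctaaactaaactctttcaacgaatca
DFR, chr5:17166033-17166282, minus strand: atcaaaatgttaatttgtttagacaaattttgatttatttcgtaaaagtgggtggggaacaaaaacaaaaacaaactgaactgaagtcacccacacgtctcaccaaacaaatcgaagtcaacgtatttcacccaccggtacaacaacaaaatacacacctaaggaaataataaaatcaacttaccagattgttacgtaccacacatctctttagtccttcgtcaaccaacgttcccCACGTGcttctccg
SAUR19, chr5:5963406-5963655, minus strand: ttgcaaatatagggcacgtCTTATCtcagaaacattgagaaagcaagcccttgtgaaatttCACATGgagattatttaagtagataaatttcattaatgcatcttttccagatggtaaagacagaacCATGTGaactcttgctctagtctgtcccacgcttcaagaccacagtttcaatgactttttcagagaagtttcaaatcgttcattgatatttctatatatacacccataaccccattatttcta
ASG4, chr1:190158-190407, plus strand: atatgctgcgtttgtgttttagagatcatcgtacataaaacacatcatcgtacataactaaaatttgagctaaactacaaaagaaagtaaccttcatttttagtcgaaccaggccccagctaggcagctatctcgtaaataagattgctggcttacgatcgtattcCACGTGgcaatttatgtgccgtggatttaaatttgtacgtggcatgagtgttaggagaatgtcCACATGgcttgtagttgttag
The G-box lay 14 bases before the start in DFR and 84 in ASG4, counted to its first base. The LHCB2.2 window held none of the 4 elements. Over 20787 tested genes with a window, the G-box was in 7.4% of all, 6.32% of those higher in the decoy line and 10.7% of those lower. It was in 5 of 21 light-harvesting windows, 9 of 43 photosystem, electron transport and Calvin cycle windows, 2 of 23 chlorophyll synthesis windows, 5 of 21 flavonoid enzyme windows and 6 of 33 abscisic acid, drought and cold windows. The PBE-box was in 11.4%, 10.8% and 13.3%, the evening element in 2.45%, 2.44% and 2.44%, and the I-box in 12.3%, 13.7% and 12.8% of all, higher and lower genes. These shares are descriptions with no test.

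Nuclear photosynthesis genes were higher in the decoy line as a group. Of the 21 light-harvesting genes, which encode the chlorophyll-binding antenna proteins, 20 were higher and LHCB7 did not pass. All 43 genes for photosystem, electron transport and Calvin cycle proteins were higher, as were 22 of 23 chlorophyll synthesis genes, with CAO the exception. The medians of these lists were 1.43, 1.32 and 1.08 on the log2 scale, against -0.01 for all genes tested. With library totals alone the higher members numbered 18, 43 and 20.

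LHCB2.2 stood at 1913, 1524 and 1666 CPM in the decoy libraries and at 332, 483 and 389 CPM in the PIF3 libraries. It encodes a subunit of the photosystem II antenna trimer, and its highest PIF3 library lay below its lowest decoy library (log2 difference 2.08, SE 0.20, adjusted p = 0.000353). Col-0, at 567 CPM, and the cfh1 mutant, at 534 CPM, lay between the lines. PSAF was measured at 3122, 2319 and 2559 CPM in the decoy line and 412, 784 and 582 CPM in the PIF3 line. This photosystem I subunit differed by 2.17 on the log2 scale (adjusted p = 0.000945), again with Col-0 between, at 1375 CPM. FD2 stood at 2885, 2672 and 2572 CPM in the decoy libraries and at 379.7, 726 and 539.6 CPM in the PIF3 libraries. FD2, the main leaf ferredoxin, carries electrons from photosystem I (log2 difference 2.3, SE 0.26, adjusted p = 0.000617). RBCS3B had 10174, 7265 and 9169 CPM in the 3 decoy libraries, against 1595, 3016 and 2089.5 CPM in the 3 PIF3 libraries. RBCS3B encodes a Rubisco small subunit and is one of several near-identical copies, so reads may have been split among them (log2 difference 1.99, SE 0.30, adjusted p = 0.00208).

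The largest changes in chlorophyll synthesis included its entry step and later ones. HEMA1 had 235, 317 and 325 CPM in the 3 decoy libraries, against 60.5, 118 and 70.2 CPM in the 3 PIF3 libraries. HEMA1 encodes glutamyl-tRNA reductase, the entry to tetrapyrrole synthesis (log2 difference 1.82, SE 0.26, adjusted p = 0.00191). CHLH stood at 2435, 1613 and 2401 CPM in the decoy libraries and at 506, 762 and 580.1 CPM in the PIF3 libraries. CHLH encodes a magnesium chelatase subunit (log2 difference 1.8, SE 0.24, adjusted p = 0.00134). PORA was measured at 19.2, 16.2 and 18.4 CPM in the decoy line and 1.51, 5.75 and 4.76 CPM in the PIF3 line. PORA, a protochlorophyllide reductase known for high levels in dark-grown seedlings, had the largest difference of the list (log2 difference 2.16, SE 0.40, adjusted p = 0.00533). Unlike the other genes of the list named here, PORA lay at 3.08 CPM in Col-0, within the range of the PIF3 libraries.

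Among 10 regulators of plastid genes, 4 were higher, led by GLK1, an activator of nuclear photosynthesis genes. GLK1 stood at 162, 117 and 129 CPM in the decoy libraries and at 50.6, 66.5 and 62.4 CPM in the PIF3 libraries. Its log2 difference was 1.18 (adjusted p = 0.00179), while the other 3 lost their call when single libraries were left out. The higher count fell to 1 without CFH1 decoy replicate 3 and to 1 without any one of the PIF3 libraries. With library totals alone 1 was higher and 2 were lower. Chlorophyll breakdown genes split, with 3 of 8 higher and 1 lower. NYC1 had 95.8, 117 and 91.4 CPM in the 3 decoy libraries, against 25.2, 36.9 and 24.7 CPM in the 3 PIF3 libraries. NYC1, a chlorophyll b reductase, was the largest of these (log2 difference 1.81, SE 0.19, adjusted p = 0.000505). Of 74 tested plastid-encoded genes, 4 were higher and 21 lower, with a median of -0.12. They did not share the higher levels of the nuclear photosynthesis lists in these mRNA libraries, where plastid counts were 0.74% to 1.41% of the total. The excess of lower genes was not stable. Without CFH1 decoy replicate 3, 11 plastid-encoded genes were higher and 13 lower, and without PIF3 over-expression replicate 3 their median was 0.18. Of 14 carotenoid and photoprotection genes 7 were higher and 1, ELIP1, was lower, but only 1 was higher with library totals alone and 3 without PIF3 over-expression replicate 3. ELIP1 stood at 5.66, 4.84 and 6.66 CPM in the decoy libraries and at 241, 18.7 and 12.6 CPM in the PIF3 libraries. The ELIP1 difference of -3.99 (SE 1.08, adjusted p = 0.0238) was -1.45 without PIF3 over-expression replicate 1, and its call was lost without any one of the 3 decoy libraries.

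**Figure D2:**
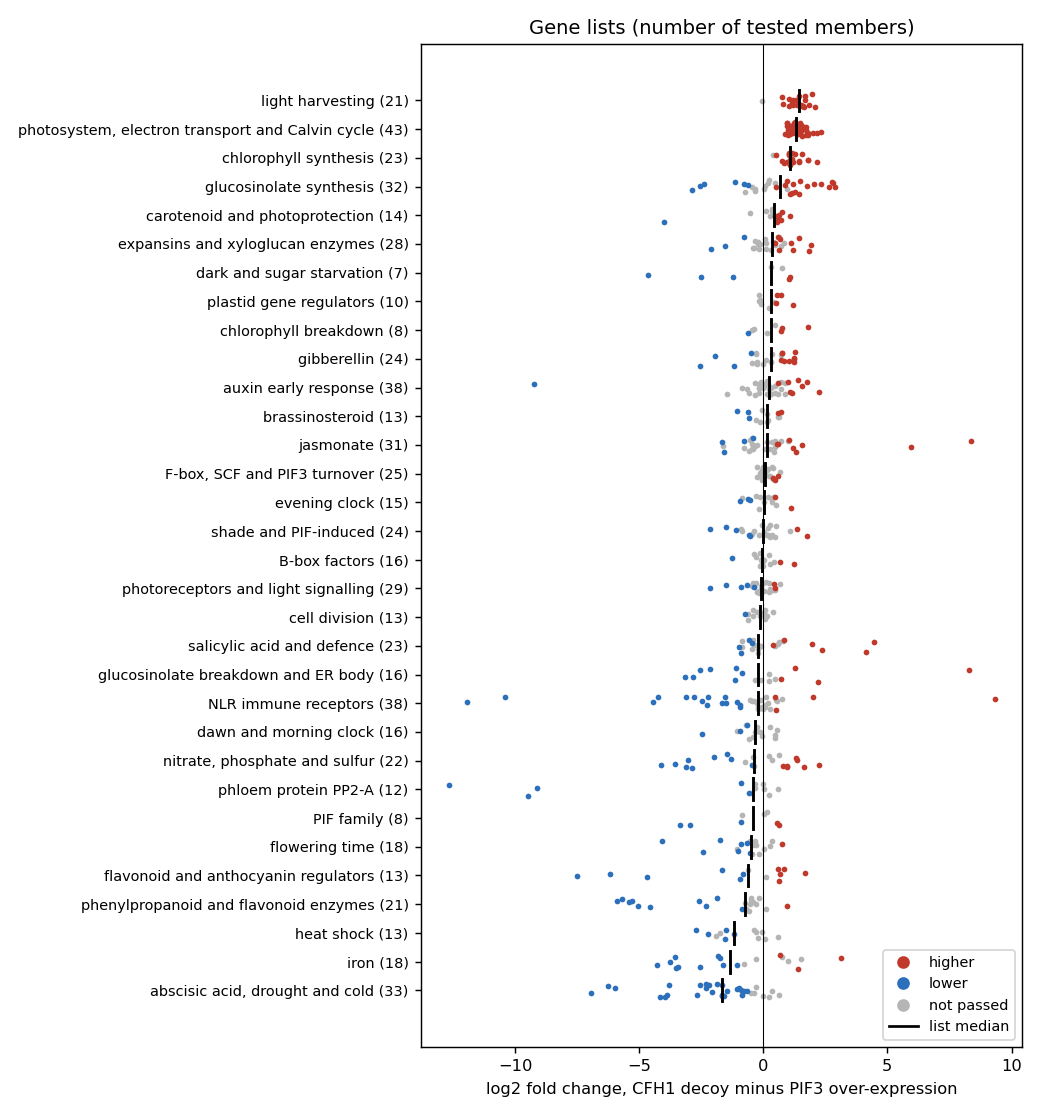
Log2 fold change, decoy minus PIF3 over-expression (x axis), of each tested member of 32 gene lists (y axis, with the number of tested members in brackets). Points are genes coloured by call, and black bars are list medians, from -1.65 for abscisic acid, drought and cold to 1.43 for light harvesting.

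The anthocyanin branch of flavonoid synthesis was lower in the decoy line. Of 21 phenylpropanoid and flavonoid enzyme genes 10 were lower, 1 was higher and 10 did not pass, with a median log2 difference of -0.74, or 18 lower and a median of -1.10 with library totals alone. The 6 largest act late in the pathway and differed by at least 4.58 on the log2 scale. DFR stood at 0.784, 3.45 and 1.49 CPM in the decoy libraries and at 252, 69.9 and 34.8 CPM in the PIF3 libraries. DFR encodes dihydroflavonol reductase, the first step of that branch (log2 difference -5.89, SE 0.86, adjusted p = 0.00194). LDOX was measured at 1.12, 1.39 and 1.63 CPM in the decoy line and 144, 49.3 and 25.5 CPM in the PIF3 line. LDOX, anthocyanidin synthase, acts next (log2 difference -5.69, SE 0.67, adjusted p = 0.000803). The spread within the PIF3 line was wide for both, with replicate 1 the highest, and without PIF3 over-expression replicate 1 the differences were -4.70 and -4.74. Of the genes ahead of DFR in the pathway, F3H and TT7 were among the 10 lower. PAL1, PAL2, PAL4, C4H and TT5 did not pass, and PAL3 was higher in the decoy line (log2 difference 0.93, SE 0.18, adjusted p = 0.0067).

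Regulators of the pathway moved in both directions. PAP1 stood at 0.0560, 0.212 and 0.0340 CPM in the decoy libraries and at 32.7, 17.7 and 11.5 CPM in the PIF3 libraries. PAP1, a MYB activator of anthocyanin genes, was lower in every decoy library (log2 difference -7.49, SE 0.62, adjusted p = 0.000156). TT8 had 0.112, 0.182 and 0.306 CPM in the 3 decoy libraries, against 10.6, 3.19 and 2.71 CPM in the 3 PIF3 libraries. TT8, its basic helix-loop-helix partner, differed by -4.70 (adjusted p = 0.00198). Without PIF3 over-expression replicate 1 these 2 differences were -6.99 and -3.80. MYBL2 had 30.8, 27.6 and 25.4 CPM in the 3 decoy libraries, against 9.64, 8.16 and 8.04 CPM in the 3 PIF3 libraries. MYBL2, a repressor of the same pathway, was higher in the decoy line (log2 difference 1.70, SE 0.14, adjusted p = 0.000184). Over the list of 13 tested regulators, 5 were higher and 6 lower, and the counts went down to 2 without CFH1 decoy replicate 3 and to 3 without PIF3 over-expression replicate 1. LBD37, LBD38 and LBD39, nitrate-responsive repressors of anthocyanin synthesis, were 3 of the 5, of which LBD39 kept its call in all 6 leave-outs (log2 difference 0.85, SE 0.18, adjusted p = 0.009).

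Abscisic acid, drought and cold genes were lower in the decoy line in a larger share than in any other of the 32 gene lists. Of 33 tested, 25 were lower and the other 8 did not pass, with a median log2 difference of -1.65. RAB18 stood at 16.9, 8.44 and 9.37 CPM in the decoy libraries and at 3207, 501 and 561 CPM in the PIF3 libraries. RAB18 is a dehydrin induced by abscisic acid, with a difference of -6.96 (SE 0.87, adjusted p = 0.00101). RD29B was measured at 5.32, 4.60 and 3.5 CPM in the decoy line and 687, 141 and 183 CPM in the PIF3 line. RD29B is a classical abscisic acid marker (log2 difference -6.24, SE 0.68, adjusted p = 0.000555). HAI2 stood at 1.91, 1.48 and 1.63 CPM in the decoy libraries and at 52.1, 17.3 and 20.8 CPM in the PIF3 libraries. HAI2 is a protein phosphatase 2C of the same response (log2 difference -4.18, SE 0.45, adjusted p = 0.000551). Lower members also included NCED3, which encodes a step of abscisic acid synthesis, P5CS1 of proline synthesis, and the cold-response factor CBF3.

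PIF3 over-expression replicate 1 was the highest library for RAB18, RD29B and HAI2 and stood well above the other 2. Col-0 was uneven too, with RAB18 at 8.76, 12.0 and 188 CPM in its 3 libraries. Means in Col-0 and cfh1 were 14.6 and 6.96 CPM for RD29B, 38.1 and 29.3 CPM for RD29A. For LTI30 they were 67.2 and 51.8 CPM. Decoy means of RD29B, RD29A and LTI30 were 4.47, 29.1 and 19.8 CPM, and PIF3 line means 337, 428 and 307 CPM. By these means Col-0 lay between the lines and nearer the decoy line. Without PIF3 over-expression replicate 1 the list median was -1.14, and the differences were -5.54 for RAB18 and -5.19 for RD29B, still past the threshold. Between 23 and 25 members were lower when single libraries were left out. Of 70 tested genes with late embryogenesis abundant in their RefSeq product, a family chosen after its values were seen, 34 were lower and 4 higher, with a median of -0.73. LEA7 had 1.34, 0.605 and 0.815 CPM in the 3 decoy libraries, against 586, 70.2 and 124 CPM in the 3 PIF3 libraries. LEA7 was the largest with a name (log2 difference -8.21, SE 0.97, adjusted p = 0.000803), and -6.79 without PIF3 over-expression replicate 1. Of 13 heat shock genes 5 were lower and the other 8 did not pass, with HSP90.1 at 4.56 CPM in the decoy line and 13.1 CPM in the PIF3 line (log2 difference -1.52, SE 0.19, adjusted p = 0.001).

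**Figure D3:**
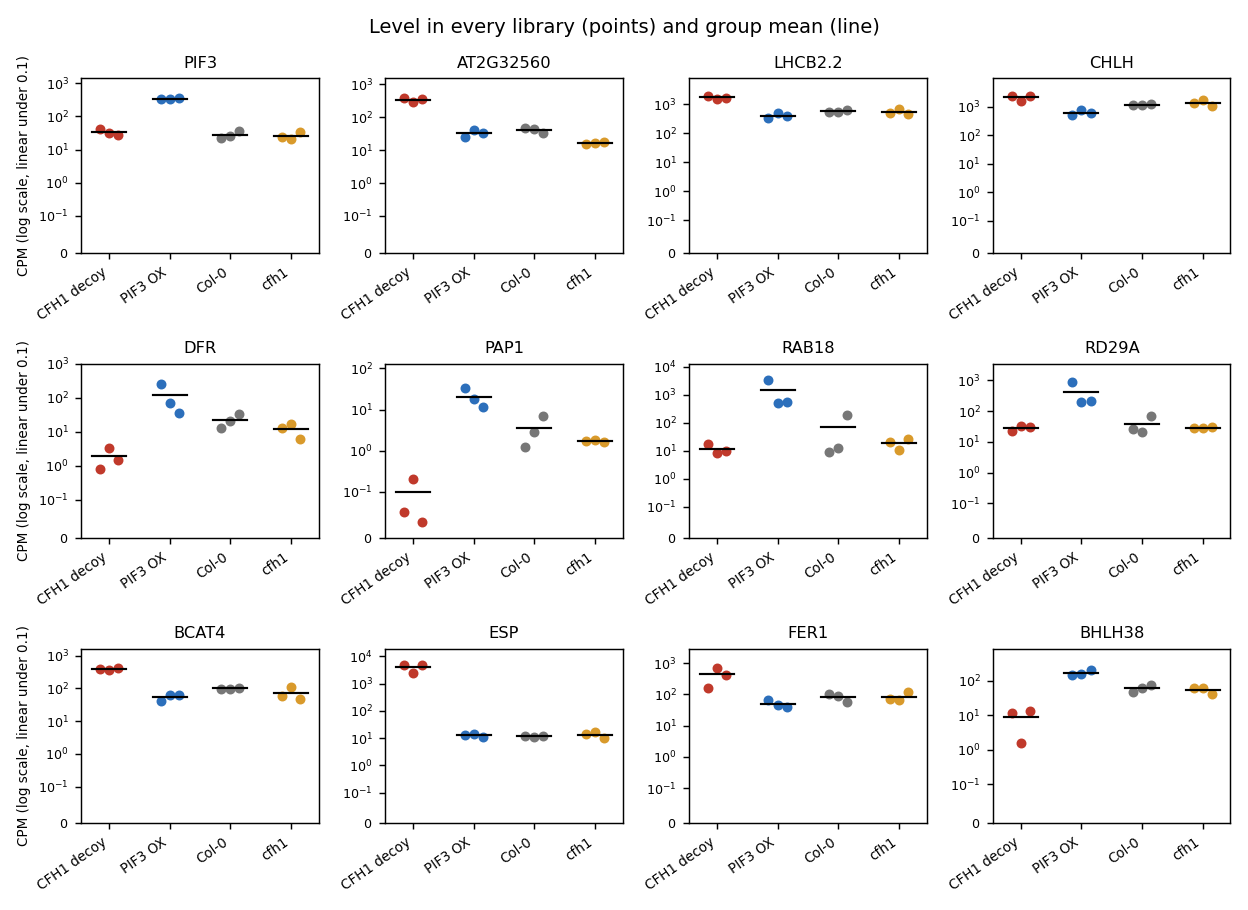
CPM (y axis, log scale, linear under 0.1) of 12 genes in each of the 12 libraries, with points for libraries and lines for group means, in CFH1 decoy, PIF3 over-expression (PIF3 OX), Col-0 and cfh1. PIF3 stands 339 to 353 CPM in its over-expression line, and for RAB18, RD29A and DFR replicate 1 of that line lies above the other 2.

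Beside PIF3, 2 of the 8 PIF family genes were higher in the decoy line and 2 lower. PIF4 stood at 86.4, 73.5 and 82.2 CPM in the decoy libraries and at 52.4, 56.3 and 57.2 CPM in the PIF3 libraries. PIF4, which promotes elongation growth, was higher in the decoy line (log2 difference 0.54, SE 0.12, adjusted p = 0.0101), as was PIF5 (log2 difference 0.63, SE 0.14, adjusted p = 0.0111). Neither passed with library totals alone. PIF6 stood at 2.19, 3.66 and 4.14 CPM in the decoy libraries and at 47.7, 13.8 and 18 CPM in the PIF3 libraries. PIF6 was lower in the decoy line (log2 difference -2.97, SE 0.48, adjusted p = 0.00304), and -2.24 without PIF3 over-expression replicate 1. HFR1 was measured at 8.24, 6.66 and 6.21 CPM in the decoy line and 22.2, 33.4 and 37.6 CPM in the PIF3 line. HFR1, an atypical helix-loop-helix protein that restrains PIFs, was also lower (log2 difference -2.15, SE 0.22, adjusted p = 0.000451). Unlike the photosynthesis genes, it lay at 3.42 CPM in Col-0, below both lines. Of 29 photoreceptor and light-signalling genes 2 (6.9%) were higher and 5 (17.2%) lower, against 15.1% and 16.4% of all genes tested. The lower count was 3 without CFH1 decoy replicate 1, and the 2 higher, CRY2 and HY1, did not pass without PIF3 over-expression replicate 1. PHYB differed by 0.04 (SE 0.12, adjusted p = 0.817) and HY5, a central activator of light responses, by -0.18 (SE 0.14, adjusted p = 0.376). PIL1, a shade marker induced by PIFs, stood at 1.12, 0.938 and 0.883 CPM in the decoy libraries and 1.29, 1.8 and 2.27 CPM in the PIF3 libraries and did not pass (adjusted p = 0.0738).

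At this harvest time, 1 h after subjective dawn, 3 of 16 dawn and morning genes (18.8%) were lower and 13 did not pass, near the 16.4% of all genes that were lower. CCA1 stood at 47.3, 83.6 and 93.7 CPM in the decoy libraries and at 106, 133 and 125 CPM in the PIF3 libraries. CCA1, a MYB repressor that peaks at dawn, did not pass (log2 difference -0.70, SE 0.24, adjusted p = 0.0569). LHY had 123, 169 and 189 CPM in the 3 decoy libraries, against 158, 226 and 195 CPM in the 3 PIF3 libraries. Its partner LHY did not pass (log2 difference -0.27, SE 0.20, adjusted p = 0.334). TOC1, the evening repressor of both, differed by 0.02 (SE 0.15, adjusted p = 0.923). ASG4 had 2.13, 2.24 and 2.41 CPM in the 3 decoy libraries, against 14.4, 12.1 and 10.8 CPM in the 3 PIF3 libraries. ASG4, a REVEILLE-type MYB, was the largest of the 3 (log2 difference -2.45, SE 0.19, adjusted p = 0.00011), followed by RVE2 (log2 difference -0.94, SE 0.19, adjusted p = 0.00673) and RVE1 (log2 difference -0.68, SE 0.12, adjusted p = 0.00509). Of 15 evening genes 2 were higher (13.3%, against 15.1% of all genes) and 3 lower (20.0%), with CHE, a repressor of CCA1, higher in the decoy line (log2 difference 1.1, SE 0.21, adjusted p = 0.00542). Each of the 3 lower evening genes lost its call without PIF3 over-expression replicate 1. With library totals alone 8 dawn genes and 5 evening genes were lower.

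Growth hormone genes gave smaller counts. Of 38 auxin early response genes 8 were higher and 1 lower, but 4 were higher and 10 lower with library totals alone, and 3 were higher without PIF3 over-expression replicate 3. GH3.3 stood at 72.2, 32.3 and 69.1 CPM in the decoy libraries and at 12.7, 12.5 and 11.9 CPM in the PIF3 libraries. GH3.3 joins auxin to amino acids (log2 difference 2.22, SE 0.28, adjusted p = 0.00107). SAUR23 was measured at 9.58, 8.11 and 6.59 CPM in the decoy line and 2.17, 4.03 and 2.87 CPM in the PIF3 line. SAUR23 belongs to the small auxin-up RNA family (log2 difference 1.42, SE 0.27, adjusted p = 0.00571). SAUR19, its neighbour in the same tandem cluster, had no counts in the decoy libraries and 1.18, 3.72 and 2.32 CPM in the PIF3 libraries, at least 63.8-fold lower taking 3 counts over the 3 libraries as the floor. The copies of that cluster are close in sequence and their reads may have been split.

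Of 28 expansin and xyloglucan enzyme genes, which loosen cell walls, 9 (32.1%) were higher and 3 (10.7%) lower, against 15.1% and 16.4% of all genes tested. The counts were 5 and 8 with library totals alone, 5 higher without PIF3 over-expression replicate 3 and 6 lower without CFH1 decoy replicate 1. XTH24 stood at 317, 213 and 219.8 CPM in the decoy libraries and at 41.6, 83.7 and 71.3 CPM in the PIF3 libraries. XTH24 was the largest of the higher genes (log2 difference 1.93, SE 0.28, adjusted p = 0.00177), and XTH23 stood at 0.616, 0.968 and 1.53 CPM against 4.45, 5.14 and 4.35 CPM as the largest of the lower (log2 difference -2.13, SE 0.33, adjusted p = 0.00243). Of 24 gibberellin genes 9 (37.5%) were higher and 4 (16.7%) lower, or 6 and 7 with library totals alone, and 5 were higher and 2 lower without PIF3 over-expression replicate 3. GA20OX1 and GA20OX2, which encode the same step of gibberellin synthesis, moved apart. GA20OX1 had 5.16, 4.12 and 5.03 CPM in the 3 decoy libraries, against 1.37, 2.61 and 1.89 CPM in the 3 PIF3 libraries. GA20OX2 stood at 0.560, 0.696 and 0.340 CPM in the decoy libraries and at 3.38, 2.96 and 3.06 CPM in the PIF3 libraries. The first was higher (log2 difference 1.28, SE 0.28, adjusted p = 0.0107) and the second lower (log2 difference -2.55, SE 0.33, adjusted p = 0.00122) in the decoy line. Brassinosteroid genes numbered 2 higher (15.4%) and 3 lower (23.1%) of 13. Both higher members were lost and 1 lower member was left without PIF3 over-expression replicate 1, and 1 lower as well without CFH1 decoy replicate 3 or either other PIF3 library. Of 25 F-box, SCF and PIF3 turnover genes 3 (12.0%) were higher, each of which lost its call without CFH1 decoy replicate 1, and 5 were lower with library totals alone. Of 24 shade genes 2 (8.33%) were higher and 5 (20.8%) lower, and over the 6 leave-outs 1 to 4 were higher and 2 to 6 lower. Of 16 B-box factors 2 (12.5%) were higher and 1 (6.25%) lower, with BBX16 the largest that kept its call in all leave-outs (log2 difference 1.23, SE 0.23, adjusted p = 0.00496).

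Glucosinolate synthesis genes moved in both directions, with more of them higher in the decoy line. Glucosinolates are sulfur-rich defence compounds of the cabbage family, made from methionine in the aliphatic branch and tryptophan in the indolic branch. Of 32 synthesis genes 16 were higher and 6 lower, with a median of 0.68, and 15 to 16 were higher in the leave-outs. BCAT4 stood at 381, 369 and 409 CPM in the decoy libraries and at 41.3, 61.3 and 64.7 CPM in the PIF3 libraries. BCAT4 starts methionine chain elongation (log2 difference 2.79, SE 0.20, adjusted p = 6.76e-05). CYP79F1 was measured at 331, 306 and 360.0 CPM in the decoy line and 29.3, 55.7 and 61.5 CPM in the PIF3 line. CYP79F1 makes the aliphatic aldoximes (log2 difference 2.77, SE 0.27, adjusted p = 0.000363). MYB76 stood at 4.2, 6.11 and 5.09 CPM in the decoy libraries and at 0.467, 0.813 and 0.793 CPM in the PIF3 libraries. MYB76 is an activator of the aliphatic branch (log2 difference 2.89, SE 0.31, adjusted p = 0.000513), and its relatives MYB28 and MYB29 did not pass. MYB34 had 35.6, 54.5 and 36.7 CPM in the 3 decoy libraries, against 85.6, 95.2 and 96.0 CPM in the 3 PIF3 libraries. MYB34, an activator of the indolic branch, was lower (log2 difference -1.13, SE 0.18, adjusted p = 0.00282), as was MYB122 (log2 difference -2.37, SE 0.43, adjusted p = 0.00493). Within the side-chain oxygenases, GS-OX1 was higher (log2 difference 2.64, SE 0.23, adjusted p = 0.000204), whereas GS-OX2 (log2 difference -2.86, SE 0.15, adjusted p = 1.88e-05) and GS-OX4 (log2 difference -2.54, SE 0.29, adjusted p = 0.000713) were lower.

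Breakdown genes held ESP, which had the largest difference among genes with a symbol and a mean of at least 100 CPM. ESP had 4805, 2521 and 4671 CPM in the 3 decoy libraries, against 13.2, 14.4 and 11 CPM in the 3 PIF3 libraries. ESP, the epithiospecifier protein, directs breakdown to nitriles (log2 difference 8.28, SE 0.37, adjusted p = 1.13e-05). Col-0 and cfh1 were at 11.9 and 13.4 CPM, so the decoy line alone was high among the 4 genotypes by these means. NSP4 stood at 286, 257 and 209.9 CPM in the decoy libraries and at 74.6, 47.6 and 40.8 CPM in the PIF3 libraries. NSP4, a nitrile-specifier protein, was also higher (log2 difference 2.21, SE 0.24, adjusted p = 0.000596), while its relative NSP3 was lower (log2 difference -3.14, SE 0.29, adjusted p = 0.000275). TSA1 was measured at 11.6, 12.4 and 13.2 CPM in the decoy line and 60.3, 48.2 and 55.1 CPM in the PIF3 line. TSA1, a protein of ER bodies, was lower (log2 difference -2.14, SE 0.13, adjusted p = 3.95e-05). In all, 4 of 16 breakdown and ER body genes were higher and 7 lower, with 2 higher in 5 of the 6 leave-outs. A dioxygenase gene known here by its locus, AT2G25450, and chosen after its values were seen, stood at 1.51, 0.454 and 0.374 CPM in the decoy libraries and 199.9, 241 and 289 CPM in the PIF3 libraries (log2 difference -8.44, SE 0.46, adjusted p = 1.9e-05), with Col-0 at 286 CPM.

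Iron deficiency genes were lower in the decoy line and the iron store FER1 was higher. Of 18 genes 10 were lower and 3 higher, with a median of -1.36. FER1 stood at 164, 719.8 and 419 CPM in the decoy libraries and at 63.5, 46.1 and 38.4 CPM in the PIF3 libraries. FER1 encodes ferritin, a plastid iron store (log2 difference 3.14, SE 0.49, adjusted p = 0.00255). BHLH38 had 11.4, 1.57 and 13.2 CPM in the 3 decoy libraries, against 142, 154 and 212 CPM in the 3 PIF3 libraries. BHLH38 encodes a factor that switches on iron uptake when iron is short (log2 difference -4.30, SE 0.65, adjusted p = 0.00218). Its relatives BHLH39, BHLH100 and BHLH101 were lower by at least 3.45 on the log2 scale, and BTS, an E3 ligase that restrains the response, by 1.64 (SE 0.30, adjusted p = 0.00487). Decoy replicate 2 was the lowest library for BHLH38 and the highest for FER1. The uptake genes IRT1 and FRO2 did not pass, and FRU, their root regulator, was higher (log2 difference 1.39, SE 0.28, adjusted p = 0.0078). Over the leave-outs the lower count stayed at 10 to 11, and the higher count ran from 2 to 6, with 2 without CFH1 decoy replicate 1.

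Other nutrient genes moved both ways, with 7 of 22 nitrate, phosphate and sulfur genes higher and 9 lower. NIR1 stood at 797, 629 and 751 CPM in the decoy libraries and at 196, 286 and 223 CPM in the PIF3 libraries. NIR1, nitrite reductase, was higher (log2 difference 1.63, SE 0.19, adjusted p = 0.000765). SDI1 stood at 2.47, 6.33 and 6.08 CPM in the decoy libraries and at 102, 119 and 43.5 CPM in the PIF3 libraries. SDI1, a sulfur starvation marker that restrains glucosinolate synthesis, was lower (log2 difference -4.12, SE 0.46, adjusted p = 0.000617), as was LSU1, another sulfur starvation marker (log2 difference -3.57, SE 0.38, adjusted p = 0.000529). PHT1;1, a phosphate transporter, was higher (log2 difference 1.34, SE 0.29, adjusted p = 0.00951). The higher count was 4 without PIF3 over-expression replicate 3. Of 7 dark and sugar starvation genes 2 were higher and 3 lower, with DIN2 the largest (log2 difference -4.67, SE 0.46, adjusted p = 0.000378).

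**Figure D4:**
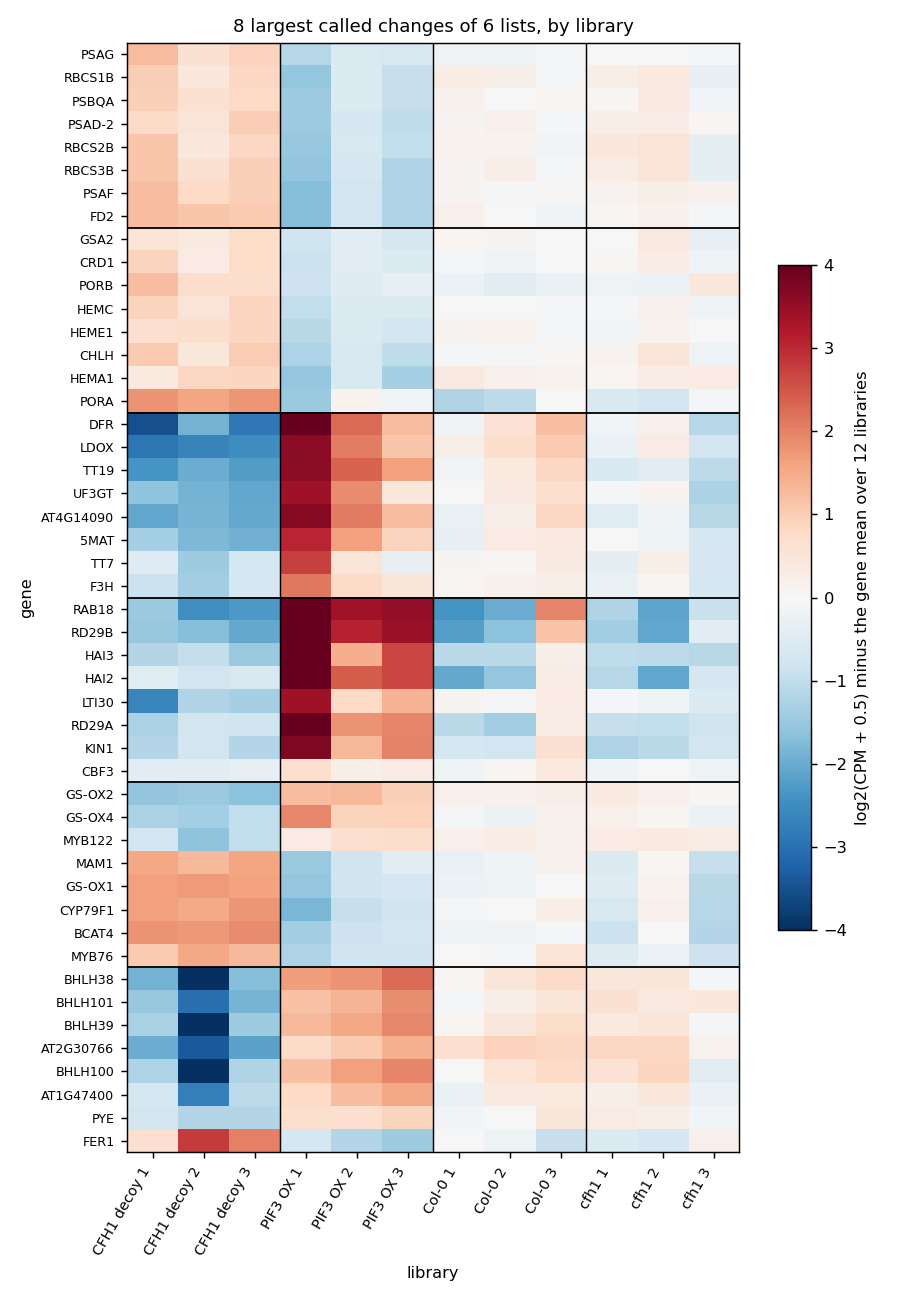
Log2 of CPM plus 0.5 minus each gene's mean over the 12 libraries (colour, limited at 4 either way) for the 8 largest called changes of 6 lists, in order photosystem, chlorophyll, flavonoid, abscisic acid, glucosinolate and iron (rows) by library (columns). PIF3 over-expression replicate 1 is the highest library for the flavonoid and abscisic acid blocks, and decoy replicate 2 the lowest for the 4 BHLH genes of the iron block.

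Immune genes included some that were hardly counted in one of the lines. Of 38 NLR immune receptor genes 15 (39.5%) were lower and 4 (10.5%) higher in the decoy line, against 16.4% and 15.1% of all genes tested. The higher count was 1 without CFH1 decoy replicate 3. ADR1-L3, of the ADR1 helper family, was among the higher, with 15.1, 17.1 and 11.7 CPM in the decoy libraries and 2 counts in all in the PIF3 libraries, a ratio of 788 with a 95% exact counting interval of 218 to 6518. AT4G19500 was at 2.35, 3.78 and 3.46 and 55.6, 63.7 and 66.7 CPM (log2 difference -4.25, SE 0.19, adjusted p = 1.13e-05). Of 12 phloem protein PP2-A genes 5 (41.7%) were lower and the other 7 did not pass. PP2-A8, at 25.1, 30.6 and 22.9 CPM in the PIF3 libraries, had no decoy counts, at least 699-fold lower. PP2-A6 and PP2-A3 had no decoy counts either, at least 76.5-fold and 60.1-fold lower. The list count thus rests partly on genes without any decoy counts, and PP2-A8 (AT5G45070) and PP2-A6 (AT5G45080) are neighbours by locus number. Of 23 salicylic acid and defence genes 6 were higher and 4 lower, or 3 higher without CFH1 decoy replicate 3 and 2 lower without PIF3 over-expression replicate 2. PR2 was measured at 16.4, 25.9 and 23.1 CPM in the decoy line and 0.687, 0.813 and 1.42 CPM in the PIF3 line. PR2, a pathogenesis-related glucanase, was higher (log2 difference 4.48, SE 0.31, adjusted p = 6.41e-05). ALD1 stood at 12.6, 7.26 and 18.3 CPM in the decoy libraries and at 0.577, 0.987 and 0.574 CPM in the PIF3 libraries. ALD1, which makes the immune signal pipecolic acid, was higher too (log2 difference 4.15, SE 0.40, adjusted p = 0.000357), whereas WRKY33 was lower (log2 difference -0.90, SE 0.18, adjusted p = 0.00768). Of 31 jasmonate genes 8 (25.8%) were higher and 4 (12.9%) lower, or 6 and 11 with library totals alone, with the lower count at 2 without PIF3 over-expression replicate 1.

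In all, 150 genes had no count in any decoy library and a mean of at least 10 counts in the PIF3 libraries, and 54 showed the reverse. Of the 150, 39, 24, 27, 20 and 35 lay on nuclear chromosomes 1 to 5 in that order, as far as the annotation places them. Among the same 150 genes, 104 had a mean of at least 10 counts in both Col-0 and cfh1. Of the 54, 47 had at most 3 counts in Col-0 and in cfh1. AT2G25510, the most counted of the 150, was at 107, 139 and 119 CPM in the PIF3 libraries and 394 CPM in Col-0, at least 3245-fold above the decoy floor. AT4G19240, the most counted of the 54, was at 86.7, 61.9 and 55.4 CPM in the decoy libraries, at least 2329-fold above the PIF3 floor. The decoy transgene and any other difference of that line cannot be told apart.

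Of 18 flowering genes 7 were lower and 1 higher, or 13 lower with library totals alone and 4 without PIF3 over-expression replicate 2. FLC had 5.49, 3.93 and 2.95 CPM in the 3 decoy libraries, against 15.7, 11.7 and 14.2 CPM in the 3 PIF3 libraries. FLC, the main repressor of flowering, was lower in the decoy line (log2 difference -1.76, SE 0.24, adjusted p = 0.0016), near its Col-0 mean of 5.43 CPM. MAF4 had 0.616, 0.908 and 0.985 CPM in the 3 decoy libraries, against 4.15, 5.11 and 4.70 CPM in the 3 PIF3 libraries. Its relative MAF4 was lower as well (log2 difference -2.45, SE 0.27, adjusted p = 0.000593), and SVP, another repressor, was higher (log2 difference 0.75, SE 0.15, adjusted p = 0.007) but did not pass with library totals alone. Of 13 cell division genes 1 was lower, TSO2 of nucleotide synthesis (log2 difference -0.72, SE 0.17, adjusted p = 0.0139), which did not pass without PIF3 over-expression replicate 3.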

How the data were processed

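RNA from whole seedlings was made into mRNA libraries from 5 to 20 ng of total RNA, per the labels' protocols. Reads were trimmed with Trimmomatic 0.39, aligned with HISAT2 2.1.0 and assembled into counts with StringTie 2.1.2 on TAIR10, tools listed per the submitters' processing notes. The deposited table holds estimated counts per gene, 41.6% of them not whole (beyond a tolerance of 1e-09), and these were rounded. Loci took RefSeq names, with 27390 of 27588 matched. The 6 libraries were filtered with filterByExpr (minimum count 10), scaled by trimmed means of M-values (TMM) and fitted with edgeR 4.0.16's quasi-likelihood test in R 4.3.3, without a replicate term, with Benjamini-Hochberg adjustment at 0.05 over all 20904 genes. A log2 difference is decoy minus PIF3 over-expression. SEs were taken from the fitted difference and its F value. CPM of all 12 libraries share one TMM scale. DESeq2 1.42.0 and 12 other settings were alternatives. Floors are 3 counts over a group, and these, like counting intervals, express counting error alone.

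The script was tested on simulated data. Lists and members were chosen with earlier results of these data known. Named genes were, per direction, the 15 largest differences and the 10 largest at a mean of at least 100 CPM, all with a symbol, non-overlapping lines and 1 or more as mean log2 CPM, plus up to 4 called members per list and direction, and PIF3, PHYB, CCA1, LHY, TOC1, PIL1 and HY5. Genes named outside this rule are list members, or are marked in the text as picked later. One result is not reported here.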

Additional observations from a re-analysis of the deposited data

How the results depend on the processing

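PIF3 kept its direction and call under the 13 alternatives, from -3.52 to -3.22 when single libraries were left out. No called gene was called in the opposite direction under an alternative. Library totals alone gave 1520 genes higher and 6794 lower, since that scaling shifts all genes. Leaving out 1 library gave 1854 to 3658 higher and 2189 to 3733 lower, lowest without PIF3 over-expression replicate 3, which leaves 2 libraries in that line. DESeq2 gave 3734 and 3882, and all 12 libraries in the fit gave 4363 and 4827. Of 210 called genes named by the rule, 148 kept their call in each of the 13 settings. Replicate numbers in the labels did not pair the libraries: deviations of same-numbered libraries correlated at -0.04, -0.08 and -0.13 across 20904 genes, and 0 of 3 decoy libraries correlated best with its own number. With the replicate block the counts were 2395 higher and 2874 lower, and PIF3 was at -3.36. Genes with no decoy counts numbered 138 to 193 over the leave-outs, and those with no PIF3 line counts 46 to 69. With library totals alone the lists also moved beyond 1.5 times for light signalling (0 higher, 10 lower), heat shock (9 lower) and shade (1 higher, 9 lower). So did flavonoid regulators (2 higher), salicylic acid (3 higher), NLR genes (2 higher), breakdown and ER body genes (2 higher) and chlorophyll breakdown (1 higher). Others were B-box factors (1 higher, 3 lower), brassinosteroid (0 higher), evening clock (1 higher) and cell division (2 lower). Dark and sugar starvation (1 higher) and F-box, SCF and PIF3 turnover genes (0 higher) moved as well.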

Other observations

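Families read from the RefSeq product names, chosen after their values were seen, gave further counts, to be read beside the 15.1% of all tested genes that were higher in the decoy line and the 16.4% that were lower. Of 318 tested genes with ribosomal protein in the product 61 were higher in the decoy line and 15 lower, with a median log2 difference of 0.15, or 38 higher and 44 lower with library totals alone. Of 28 tubulin genes 11 were higher and 1 lower, with a median of 0.43, or 2 higher and 5 lower with library totals alone. Of 29 aquaporin or intrinsic protein genes 13 were higher and 4 lower, with a median of 0.41, or 8 and 7 with library totals alone. Of 116 genes with pectin in the product 39 were higher and 10 lower, with a median of 0.28, or 22 and 21 with library totals alone. Of 140 disease resistance genes 15 were higher and 51 lower, with a median of -0.37, or 11 and 64 with library totals alone. Of 182 F-box genes 27 were higher and 27 lower (14.8% each), near the share of all genes.

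Single genes outside the lists stood out by size. MRD1 was at 115, 106 and 78.0 CPM in the decoy libraries and 1.76, 1.48 and 2.24 CPM in the PIF3 libraries, with means of 43.1 CPM in Col-0 and 0.212 CPM in the cfh1 mutant. The MRD1 order puts the decoy line highest and the cfh1 mutant lowest among the 4 genotypes. HSD2 was at 106, 124 and 137 CPM in the PIF3 libraries and at 0, 0.242 and 0 CPM in the decoy libraries, with Col-0 at 134 CPM. AIR1 was at 399, 161 and 623 CPM in the decoy libraries and 3.38, 17.0 and 5.19 CPM in the PIF3 libraries, so decoy replicate 2 was the lowest of its line.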
